A study of Homo sapiens with 18 samples.

Results

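MHC class I molecules carry peptides from inside a cell to its surface, where T cells and natural killer cells read them. The genes described here are 9 genes of that pathway, chosen by symbol: the heavy-chain genes HLA-B, HLA-C, HLA-E and HLA-F, the light chain B2M, the peptide transporter subunits TAP1 and TAP2, and the immunoproteasome subunits PSMB8 and PSMB9. They are 9 of 58735 genes in the deposited count table. Each has a single row there, and all 9 are among the 17409 genes that passed the filter on low counts.

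A pair of established human keratinocyte lines was compared by RNA sequencing. HaCaT is a spontaneously immortalised line from skin, and TIGK is a line from gingiva immortalised with telomerase. Cells were harvested without a scratch (0 h) or at 6 h or 24 h after a scratch wound was made in the culture, and each of these 6 groups has 3 libraries, 18 in all. The study asked how oral and skin keratinocytes differ before and after wounding. Each tissue is represented by 1 line, so tissue and line cannot be told apart. No unscratched culture was kept to 6 h or 24 h, so the scratch and the time in culture cannot be told apart either. The labels do not say that the libraries of a group came from separate cultures. A p-value here thus sets a difference between groups against the spread among these libraries, and that spread may be technical.

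The proteasome cuts cytosolic proteins into peptides. Cells exposed to interferon exchange its standard catalytic subunits PSMB5, PSMB6 and PSMB7 for PSMB8, PSMB9 and PSMB10, which gives the immunoproteasome. The TAP1-TAP2 dimer pumps peptides into the endoplasmic reticulum, where a heavy chain paired with beta-2 microglobulin (B2M) receives one with the help of tapasin, calreticulin and other chaperones. HLA-B and HLA-C present varied peptides to T cells, HLA-E mainly presents leader peptides of other class I chains to receptors on natural killer cells, and HLA-F is a less abundant non-classical chain. Type I and type II interferons raise most of these genes through IRF factors and the coactivator NLRC5.

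Library totals ran from 14238090 to 25011331 counts. Libraries are named by line, time and the letters A to C of the table's columns. TIGK C at 0 h and at 6 h stood apart, with 26246 and 25161 genes detected, against 21164 to 22799 in the other 16 libraries. Leaving out both changed the number of the 9 genes called in 2 of 11 comparisons, which are given where they occur. Keratinocyte markers (KRT5, KRT14 and 4 others, all 6 with counts in every group) summed to between 30030 and 39780 CPM (counts scaled to the library total) in every library. Markers of immune cells, which carry much class I, summed to at most 1.71 CPM over 9 genes, with LYZ, AIF1, TYROBP and CD1A at 0 in every group. Fibroblast markers summed to 21.0 to 40.6 in HaCaT and 236 to 434 in TIGK, with COL1A2 at 0 in TIGK at 6 h and 24 h and PDGFRA at 0 in HaCaT; their part in the differences between the lines was not tested. In TIGK the 0 h libraries summed to 236 to 274 CPM, those of 6 h to 241 to 289 CPM, and those of 24 h to 389.8 to 434 CPM. COL1A1 and DCN were the highest of these markers in TIGK. DCN moved most, from a mean of 100.4 CPM at 0 h to 230 CPM at 24 h.

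The promoter sequence of 8 of the 9 genes was found in RefSeq (GRCh38.p14), in 10 windows from 250 bases before to 50 bases after a transcription start; HLA-E had no entry. A stretch is printed only where a window matched an interferon-stimulated response element in either form given below, so each holds a match by that choice. TAP2, which did not rise in TIGK, is among them. PSMB9, which rose, is not, and the printed TAP1 stretch lies between the TAP1 and PSMB9 starts, outside the PSMB9 window. Capitals mark matches to letters searched on both strands: the interferon-stimulated response element (GAAA, any 2 bases, GAAA), a form of it with 1 base less (GAANNGAAA), a kappaB-like element (GGGA, any base, TTTCC), the TGACG of a cyclic AMP response element and the CCAAT box.
HLA-B: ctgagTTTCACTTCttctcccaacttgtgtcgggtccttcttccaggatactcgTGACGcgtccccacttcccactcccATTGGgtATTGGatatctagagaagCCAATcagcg
HLA-C: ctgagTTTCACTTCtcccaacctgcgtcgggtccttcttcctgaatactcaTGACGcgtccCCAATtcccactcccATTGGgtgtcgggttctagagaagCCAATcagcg
HLA-F: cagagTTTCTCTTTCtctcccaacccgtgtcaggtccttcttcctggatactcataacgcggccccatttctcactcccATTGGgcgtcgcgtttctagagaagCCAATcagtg
B2M: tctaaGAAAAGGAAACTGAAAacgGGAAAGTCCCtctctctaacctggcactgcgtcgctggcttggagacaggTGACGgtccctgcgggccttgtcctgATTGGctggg
TAP1: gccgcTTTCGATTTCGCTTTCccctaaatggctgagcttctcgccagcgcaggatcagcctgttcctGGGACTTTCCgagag
TAP2: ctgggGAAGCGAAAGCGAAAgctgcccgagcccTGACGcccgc
PSMB8: gtggcTTTCGCTTTCACTTCctcct

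These stretches lie at chr6:31357226-31357339 (HLA-B, minus strand), chr6:31272139-31272248 (HLA-C, minus), chr6:29723273-29723386 (HLA-F, plus), chr15:44711368-44711477 (B2M, plus), chr6:32853762-32853843 (TAP1, minus), chr6:32838765-32838807 (TAP2, minus) and chr6:32844032-32844056 (PSMB8, minus, the second of its 2 windows). The response element matched in HLA-F, B2M, TAP1, TAP2 and PSMB8, and the shorter form in HLA-B, HLA-C, TAP2 and PSMB8. In all 35116 windows of the same length, 3.57% held the first and 7.66% the second. These shares count windows, while a gene was counted if any of its windows matched. TAP1 held a response element only in the first of its 2 windows, and PSMB8 only in the second. HLA-B and HLA-C carry the shorter form at positions -155 to -147 and -151 to -143, counted with the start as base 1. The matches of B2M overlap each other, as do those of TAP1, those of TAP2 and those of PSMB8. A kappaB-like match occurred in B2M and TAP1, and in 0.558% of all windows. TGACG followed by ATTGG 15 to 40 bases further on, the arrangement of the class I enhancer module that NLRC5 and RFX factors use, occurred in HLA-B, HLA-C and B2M and in 0.487% of all windows. Alone, TGACG matched in 24.6% of windows and CCAAT in 34.6%. PSMB9 matched TGACG and CCAAT, and neither form of the response element in its window. A match describes letters and not a bound factor. TAP1 and PSMB9 are read in opposite directions from starts that lie 487 bases apart. The TAP1 stretch lies between these starts and outside the PSMB9 window, which begins at 32853942, so that window could not hold its matches.

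At baseline HaCaT cells carried less heavy-chain mRNA than TIGK cells. At 0 h the difference was largest for HLA-B and HLA-F and smaller for HLA-C and HLA-E. By 24 h it was wider for HLA-B and HLA-C by the test of the change between the lines, which HLA-E and HLA-F did not pass. In bulk RNA, fewer cells that express a gene and less RNA per cell cannot be told apart. Levels are CPM on libraries scaled by trimmed mean of M-values. Fold changes, standard errors and adjusted p-values come from edgeR's quasi-likelihood test, with Benjamini-Hochberg adjustment over all genes tested and a call at an adjusted p under 0.05.

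HLA-B (chromosome 6, 31269491 to 31357188, hg38, minus strand) had 41.2, 42.6 and 36.3 CPM in HaCaT at 0 h and 182, 188 and 153 CPM in TIGK. At 6 h the libraries held 43.4, 42.0 and 43.6 CPM in HaCaT and 209.5, 192 and 156 CPM in TIGK. At 24 h they held 35.4, 35.5 and 39.0 CPM in HaCaT and 296, 273 and 353 CPM in TIGK. Every HaCaT library was below every TIGK library, and the TIGK libraries at 24 h were above those of the other times. HaCaT was 4.35-fold lower at 0 h (log2 -2.12 ± 0.11 SE, adjusted p = 2.13e-14), 4.32-fold lower at 6 h and 8.39-fold lower at 24 h (log2 -3.07 ± 0.11, adjusted p = 2.96e-17). HLA-B and HLA-C are highly polymorphic and were counted against 1 reference genome; the part of the lines' own alleles in these counts was not tested.

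HLA-C (chromosome 6, 31268749 to 31272130, minus strand) had 32.6, 35.4 and 28.3 CPM in HaCaT and 60.5, 52.3 and 51.6 CPM in TIGK at 0 h. By 24 h it stood at 35.1, 31.2 and 39.3 CPM in HaCaT and 118, 109.8 and 128 CPM in TIGK. The groups did not overlap at either time, and the distance between the lines was wider at 24 h. HaCaT was 1.71-fold lower at 0 h (log2 -0.77 ± 0.10, adjusted p = 5.5e-07), 1.47-fold lower at 6 h and 3.37-fold lower at 24 h (log2 -1.75 ± 0.10, adjusted p = 2.74e-13).

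HLA-E (chromosome 6, 30489467 to 30494205, plus strand) was the most even of the heavy chains. It had 125, 127 and 124.5 CPM in HaCaT and 171, 192 and 169 CPM in TIGK at 0 h, and 143.5, 135 and 149.7 CPM against 235, 212 and 249.9 CPM at 24 h. HaCaT was 1.41-fold lower at 0 h (adjusted p = 3.72e-06) and 1.63-fold lower at 24 h (log2 -0.70 ± 0.08, adjusted p = 1.89e-08). HLA-F (chromosome 6, 29722775 to 29738528, plus strand) was the least abundant, at 7.88, 4.27 and 4.30 CPM in HaCaT and 15.7, 17.9 and 19.5 CPM in TIGK at 0 h. At 24 h it held 7.24, 8.73 and 8.42 CPM in HaCaT and 36.1, 31.5 and 41.4 CPM in TIGK. HaCaT A at 0 h lay well above the other 2 libraries of its group, and every HaCaT library was still below every TIGK library. The gene was 3.24-fold lower in HaCaT at 0 h (adjusted p = 1.54e-08) and 4.47-fold lower at 24 h (adjusted p = 1.09e-10).

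B2M (chromosome 15, 44711487 to 44718877, plus strand), the light chain that all class I heavy chains need, did not follow the heavy chains before 24 h. At 0 h it had 419.9, 442 and 372 CPM in HaCaT and 443, 391 and 325 CPM in TIGK, with overlapping groups (log2 0.09 ± 0.11, adjusted p = 0.492). At 6 h HaCaT held 417.5, 436 and 451 CPM and TIGK 356, 363 and 319 CPM. There HaCaT was higher, by 1.26-fold (log2 0.33 ± 0.11, adjusted p = 0.0117). At 24 h the order was the opposite: HaCaT held 444, 369 and 454 CPM, TIGK 659.9, 685 and 880 CPM, and HaCaT was 1.76-fold lower (log2 -0.81 ± 0.11, adjusted p = 6.56e-07).

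Of the transporter genes, TAP1 (chromosome 6, 32845209 to 32853978, minus strand) had 44.0, 49.1 and 45.8 CPM in HaCaT and 52.0, 56.2 and 53.6 CPM in TIGK at 0 h, which was 1.17-fold lower in HaCaT (adjusted p = 0.0186). That call was lost without HaCaT A at 0 h (adjusted p = 0.0855), without HaCaT C at 0 h (0.0556) or without TIGK B at 0 h (0.0683). At 6 h the TAP1 groups were at 47.1 to 53.8 and 46.7 to 48.0 CPM and did not pass the test (log2 0.08 ± 0.08, adjusted p = 0.400). At 24 h HaCaT was 1.48-fold lower (log2 -0.56 ± 0.08, adjusted p = 8.67e-07). TAP2 (chromosome 6, 32821833 to 32838780, minus strand) was lower in HaCaT at each time, by 1.35-fold at 0 h (adjusted p = 0.000114), 1.25-fold at 6 h (adjusted p = 0.00234) and 1.81-fold at 24 h (log2 -0.86 ± 0.09, adjusted p = 9.82e-09).

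Of the immunoproteasome subunits, PSMB8 (chromosome 6, 32840717 to 32844703, minus strand), the counterpart of PSMB5, had 19.0, 19.7 and 18.5 CPM in HaCaT and 38.8, 36.1 and 35.2 CPM in TIGK at 0 h. It was 1.93-fold lower in HaCaT at 0 h (adjusted p = 1.76e-08), 1.64-fold lower at 6 h and 3.31-fold lower at 24 h (log2 -1.73 ± 0.10, adjusted p = 2.93e-13). No HaCaT library reached the level of any TIGK library. PSMB9 (chromosome 6, 32844136 to 32859585, plus strand), the counterpart of PSMB6, overlapped between the lines at 0 h, at 7.18, 8.61 and 5.43 CPM against 9.28, 7.67 and 11.04 CPM (adjusted p = 0.163), and at 6 h (adjusted p = 0.573). At 24 h it was 1.58-fold lower in HaCaT (log2 -0.66 ± 0.24, adjusted p = 0.0212), a call lost without HaCaT B at 24 h (adjusted p = 0.0931) or TIGK C at 24 h (0.199).

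In all, 7 of the 9 genes were lower in HaCaT at 0 h, against 33.3% of all genes tested, and none was higher. At 6 h, 6 were lower, against 32.8% of all genes, and B2M was higher, as were 29.8% of all genes. All 9 were lower at 24 h, against 33.1% of all genes. The median log2 difference of the 9 genes was -0.50 at 0 h and -0.86 at 24 h, and that of all genes tested was -0.038 and -0.050. PSMB9 spans TAP1 and overlaps PSMB8, and the HLA-B row overlaps HLA-C. Exons of HLA-B and HLA-C share 35 bases and those of PSMB8 and PSMB9 share 139 bases on opposite strands in GENCODE 29. Counted against all other genes, overlap covers 32.3% of the exonic bases of TAP2, 28.5% of HLA-F, 20.6% of PSMB8, 18.9% of HLA-B, 9.49% of TAP1 and 5.66% of PSMB9. For HLA-C it is 1.4%, which is the 35 bases shared with HLA-B, and HLA-E and B2M have none. The strand setting of the counting is not given in the sources used here, so reads in shared parts, or reads of near-identical HLA copies, may be split between rows.

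**Figure D1:**
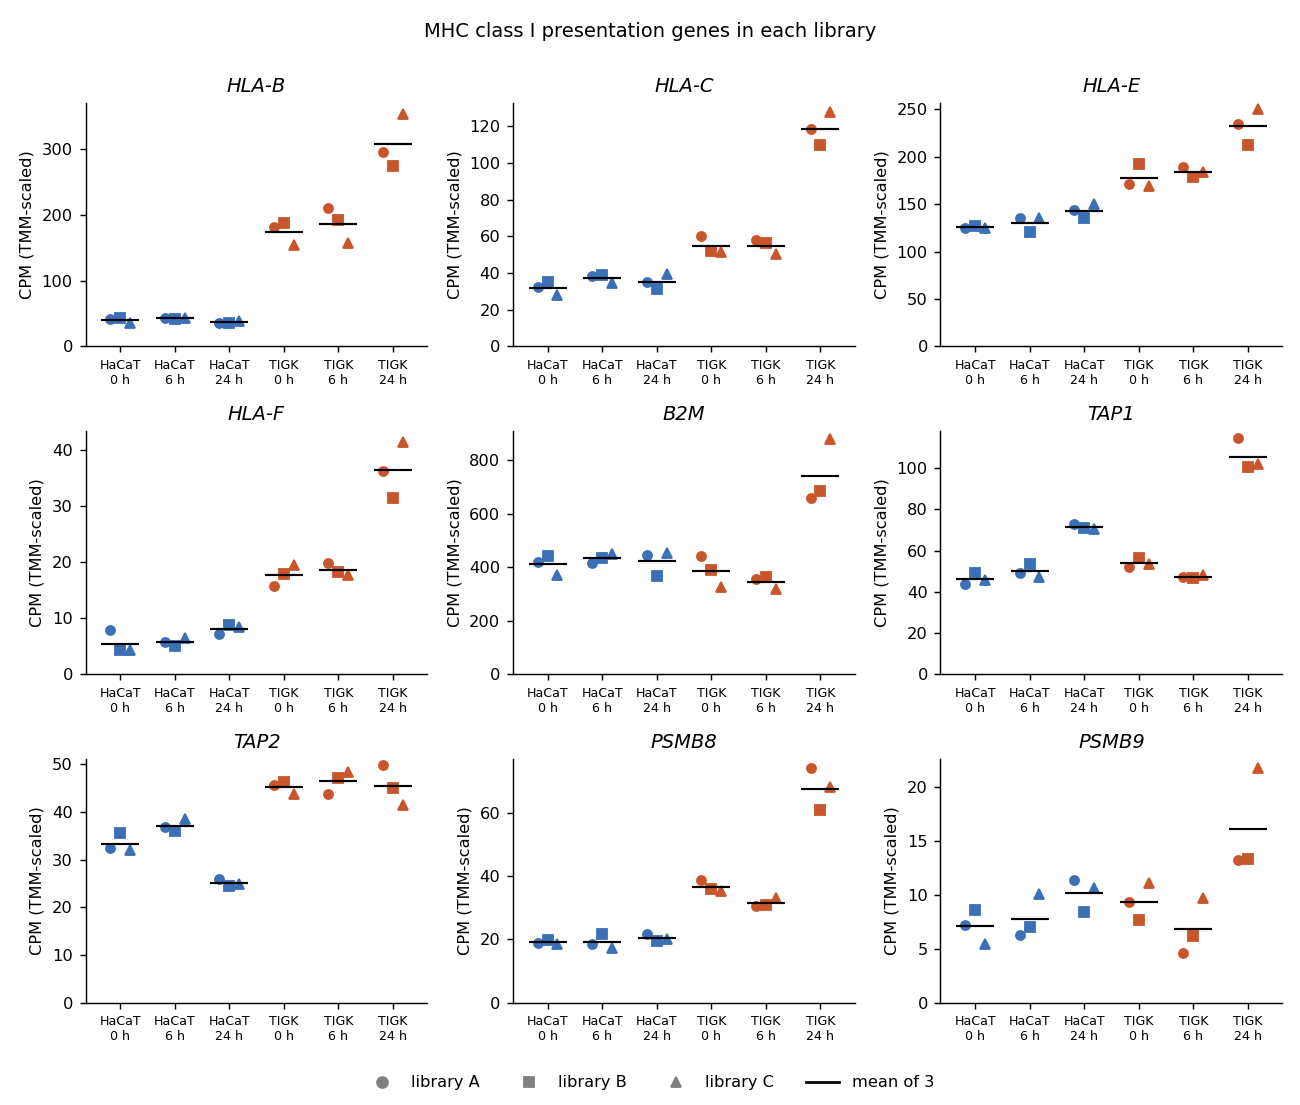
CPM of each of the 9 genes (vertical axes, starting at 0) in each library of the 6 groups (horizontal axes), with HaCaT in blue and TIGK in orange, symbols for libraries A to C and black lines for the mean of 3. HLA-B sits at 35.4 to 43.6 CPM in HaCaT and at 153 to 353 CPM in TIGK, and TAP2 shows its lowest levels in HaCaT at 24 h.

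After the scratch, the TIGK response came between 6 h and 24 h. At 6 h none of the 9 genes differed from 0 h in TIGK by edgeR, where 3.62% of all genes did, and DESeq2 and limma called none. TAP1 (log2 -0.19) and PSMB8 (log2 -0.22) had an unadjusted p under 0.05 by edgeR, both lower at 6 h. At 24 h, 8 of the 9 genes were higher than at 0 h, against 15.3% of all genes tested, and 8 were higher than at 6 h, against 17.8%. The summed fibroblast markers of TIGK stood at 389.8 to 434 CPM at 24 h, above every library of 0 h and 6 h. DCN moved most, from a mean of 100.4 CPM at 0 h to 230 CPM at 24 h, and COL1A1 went from 151.9 to 180.2 CPM. LUM went from 2.30 to 4.72 CPM, PDGFRB from 1.55 to 1.77 CPM and PDGFRA from 0.207 down to 0.0218 CPM. COL1A2 was at 0 in all 3 libraries at 24 h. The part of these markers in the change of the 9 genes was not tested. The median of the 9 genes was a log2 change of 0.89 from 0 h, and that of all genes tested was -0.012. The 2 comparisons share the 24 h libraries, so their counts are not independent.

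Among the heavy chains of TIGK, HLA-C rose most from 0 h to 24 h, by 2.17-fold (log2 1.12 ± 0.10, adjusted p = 5.97e-09), from 51.6 to 60.5 CPM up to 109.8 to 128 CPM. HLA-F rose by 2.05-fold (log2 1.04 ± 0.16, adjusted p = 2.43e-05) and HLA-B by 1.76-fold (log2 0.82 ± 0.10, adjusted p = 1.09e-06). HLA-E had the smallest increase of the 4, at 1.31-fold (log2 0.39 ± 0.08, adjusted p = 0.000279). B2M rose by 1.92-fold (log2 0.94 ± 0.11, adjusted p = 4.13e-07), with TIGK C at 24 h above the other 2 libraries. For each of these 5 genes the lowest library at 24 h was above the highest at 0 h.

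TAP1 rose in TIGK from 52.0, 56.2 and 53.6 CPM to 114, 100.4 and 102 CPM, or 1.96-fold (log2 0.97 ± 0.08, adjusted p = 1.09e-09). Its partner TAP2 stood at 45.7, 46.2 and 43.8 CPM at 0 h and at 49.8, 45.1 and 41.6 CPM at 24 h, with overlapping groups (log2 0.0093 ± 0.086, adjusted p = 0.952). PSMB8 rose from 38.8, 36.1 and 35.2 CPM to 74.3, 61.0 and 68.2 CPM (1.85-fold, log2 0.89 ± 0.10, adjusted p = 1.67e-07). PSMB9 went from 9.28, 7.67 and 11.04 CPM to 13.2, 13.3 and 21.7 CPM (1.71-fold, log2 0.78 ± 0.24, adjusted p = 0.0152). TIGK C was the highest PSMB9 library at each time, and the call was lost without TIGK C at 24 h (adjusted p = 0.143) or TIGK B at 0 h (0.0784). From 6 h to 24 h the same gene rose by 2.33-fold (adjusted p = 0.000393).

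In HaCaT fewer of the genes passed the test. None of the 9 differed at 6 h from 0 h by edgeR, where 0.201% of all genes did; HLA-C alone had an unadjusted p under 0.05, and DESeq2 and limma called none. At 24 h, 3 of 9 differed from 0 h, against 31.4% of all genes tested in either direction. TAP1 rose from 44.0, 49.1 and 45.8 CPM to 72.8, 71.1 and 70.5 CPM (1.54-fold, log2 0.63 ± 0.08, adjusted p = 1.13e-06). TAP2 fell from 32.4, 35.6 and 32.1 CPM to 26.0, 24.5 and 24.9 CPM (1.33-fold, log2 -0.41 ± 0.09, adjusted p = 0.00101). In neither gene did the groups overlap, so the subunits of 1 transporter moved in opposite directions.

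HLA-F also passed in HaCaT, higher at 24 h by 1.48-fold (log2 0.57 ± 0.19, adjusted p = 0.0262). HaCaT A at 0 h, at 7.88 CPM, overlapped the 24 h libraries, and the call was lost without HaCaT B at 0 h (adjusted p = 0.150), C at 0 h (0.156), B at 24 h (0.0860) or C at 24 h (0.0722). The other 6 genes did not pass: HLA-B stood at log2 -0.13 ± 0.11, B2M at 0.038 ± 0.11, PSMB8 at 0.10 ± 0.11, HLA-C at 0.14 ± 0.11, HLA-E at 0.19 ± 0.08 and PSMB9 at 0.52 ± 0.25. When only the HaCaT libraries of 0 h and 24 h were fitted, HLA-E and PSMB9 also passed, and 5 of 9 genes were called. Against 6 h, TAP1 (log2 0.51 ± 0.08) and HLA-F (log2 0.50 ± 0.19, adjusted p = 0.0449) were higher and TAP2 (log2 -0.56 ± 0.09) lower at 24 h, which is 3 of 9 where 35.7% of all genes passed. Without both of the TIGK C libraries named above, HLA-B joined them as lower (log2 -0.23, adjusted p = 0.0415). The HLA-F call against 6 h was lost without HaCaT A or B at 6 h (adjusted p = 0.0992 and 0.155), without HaCaT B or C at 24 h (0.131 and 0.108), and without TIGK B at 0 h, A or B at 6 h or A at 24 h (0.0512 to 0.0545).

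**Figure D2:**
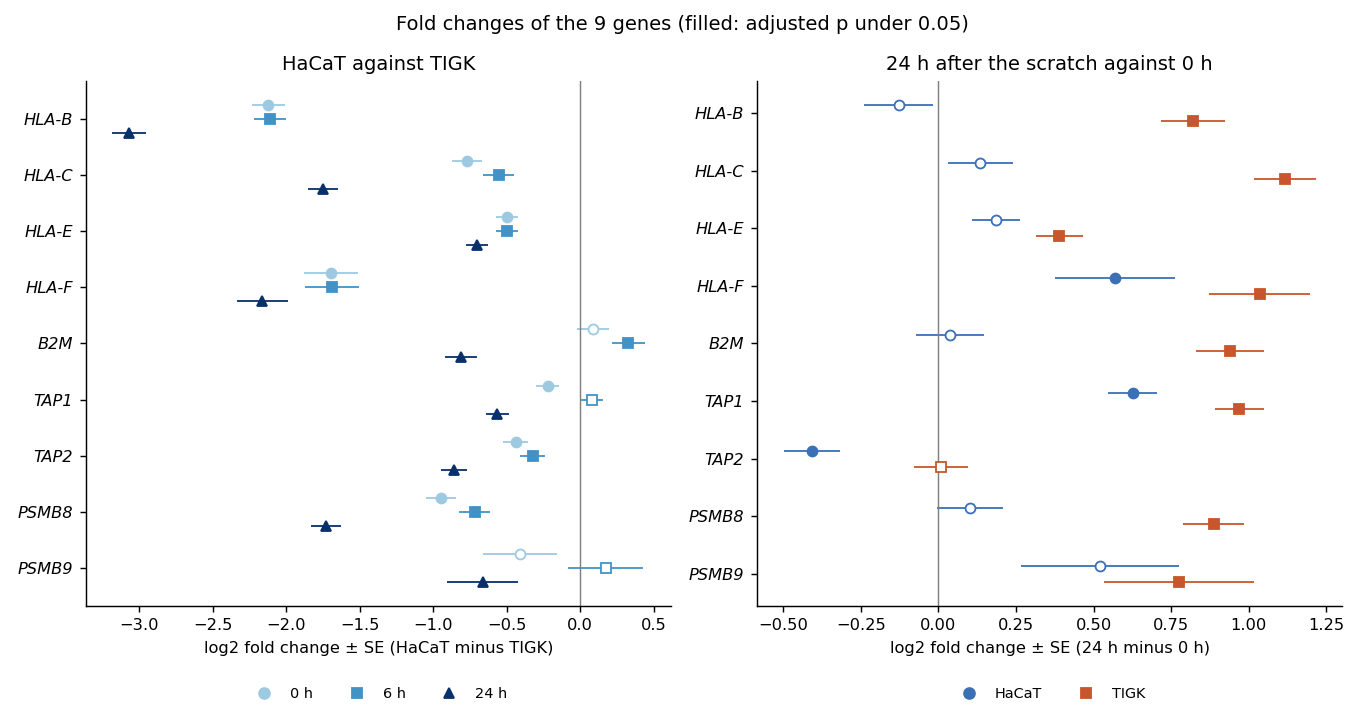
Log2 fold change ± SE (horizontal axes) of the 9 genes, on the left HaCaT minus TIGK at 0 h, 6 h and 24 h, on the right 24 h minus 0 h in each line; filled symbols have an adjusted p under 0.05. The left panel shows HLA-B at -2.12, -2.11 and -3.07, and the right panel shows TAP2 at -0.41 in HaCaT and 0.0093 in TIGK.

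The difference between the responses was tested directly, as the HaCaT change minus the TIGK change. For 24 h against 0 h, 6 of 9 genes had a lower value in HaCaT, against 6.45% of all genes tested. These were HLA-C (log2 -0.98 ± 0.14, adjusted p = 3.88e-05), HLA-B (-0.95 ± 0.15, adjusted p = 0.000105), B2M (-0.90 ± 0.16, adjusted p = 0.000227), PSMB8 (-0.78 ± 0.14, adjusted p = 0.000478), TAP2 (-0.42 ± 0.12, adjusted p = 0.0258) and TAP1 (-0.34 ± 0.11, adjusted p = 0.0411). HLA-E (-0.20 ± 0.11, adjusted p = 0.235), HLA-F (-0.47 ± 0.25, adjusted p = 0.249) and PSMB9 (-0.26 ± 0.35, adjusted p = 0.704) did not pass. For 6 h against 0 h none of the 9 was called by edgeR, DESeq2 or limma, 0.752% of all genes were called by edgeR, and TAP1 alone had an unadjusted p under 0.05.

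The TAP calls in this comparison were the least firm. Without both TIGK C libraries at 0 h and 6 h, 4 of 9 genes passed, with TAP1 at an adjusted p of 0.0641 and TAP2 at 0.0594. TAP1 was also lost without HaCaT B or C at 0 h (0.116 and 0.0579), HaCaT A, B or C at 24 h (0.0638, 0.0751 and 0.0847), TIGK A or C at 0 h (0.0911 and 0.0733) or TIGK A at 24 h (0.1002). TAP2 was lost without HaCaT B at 0 h (0.0811), HaCaT B or C at 24 h (0.0607 and 0.0554), TIGK C at 0 h (0.0639) or TIGK A at 24 h (0.0687).

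Levels of different genes were compared per length, on the authors' FPKM (fragments scaled to gene length and library total). The gene length given with the counts holds all exonic bases of a gene in GENCODE 29, such as 6079 for B2M and 2975 for HLA-E. An expressed transcript can be shorter, which would lower the FPKM, and the part of this in the order of the genes was not tested. In HaCaT at 0 h the order was B2M at 66.5 ± 5.6 FPKM (SD, n = 3), HLA-E at 41.4 ± 0.26, HLA-B at 12.9 ± 1.0, HLA-C at 12.6 ± 1.4, TAP1 at 9.46 ± 0.50, PSMB8 at 6.24 ± 0.18, TAP2 at 5.13 ± 0.28, PSMB9 at 2.26 ± 0.50 and HLA-F at 1.24 ± 0.47. HLA-B and HLA-C overlapped, as did PSMB9 and HLA-F. In TIGK at 0 h, B2M at 62.6 ± 9.6 FPKM, HLA-E at 58.6 ± 4.1 and HLA-B at 56.2 ± 5.9 overlapped each other, and HLA-C followed at 21.5 ± 2.0. By 24 h B2M led in TIGK at 121 ± 19, with HLA-B at 99.6 ± 13, HLA-E at 77.2 ± 6.4 and HLA-C at 46.8 ± 3.5; B2M overlapped HLA-B, and HLA-B was above HLA-E in every library.

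HLA-E held the largest share of these chains in HaCaT at all 3 times, and in TIGK HLA-E and HLA-B were close at 0 h and 6 h and HLA-B led at 24 h. HLA-E made up 60.9 ± 2.2% (SD, n = 3) of the summed FPKM of these 4 heavy chains in HaCaT at 0 h and 63.2 ± 0.80% at 24 h. In TIGK it made up 41.8 ± 1.9% at 0 h and 33.3 ± 0.95% at 24 h. HLA-B gave 18.9 ± 0.77% in HaCaT at 0 h against 39.98 ± 1.7% in TIGK, and 15.8 ± 0.45% against 42.9 ± 1.4% at 24 h. The summed FPKM of the 4 chains was 1.03 ± 0.05 times that of B2M in HaCaT at 0 h and 1.10 ± 0.07 times at 24 h. In TIGK it was 2.27 ± 0.25 times at 0 h, 2.62 ± 0.12 times at 6 h and 1.94 ± 0.17 times at 24 h. These shares and ratios cover these 4 chains and mRNA, and their size depends on the annotated gene lengths. They carry no test, since 3 libraries against 3 cannot give an exact permutation p below 0.1.

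**Figure D3:**
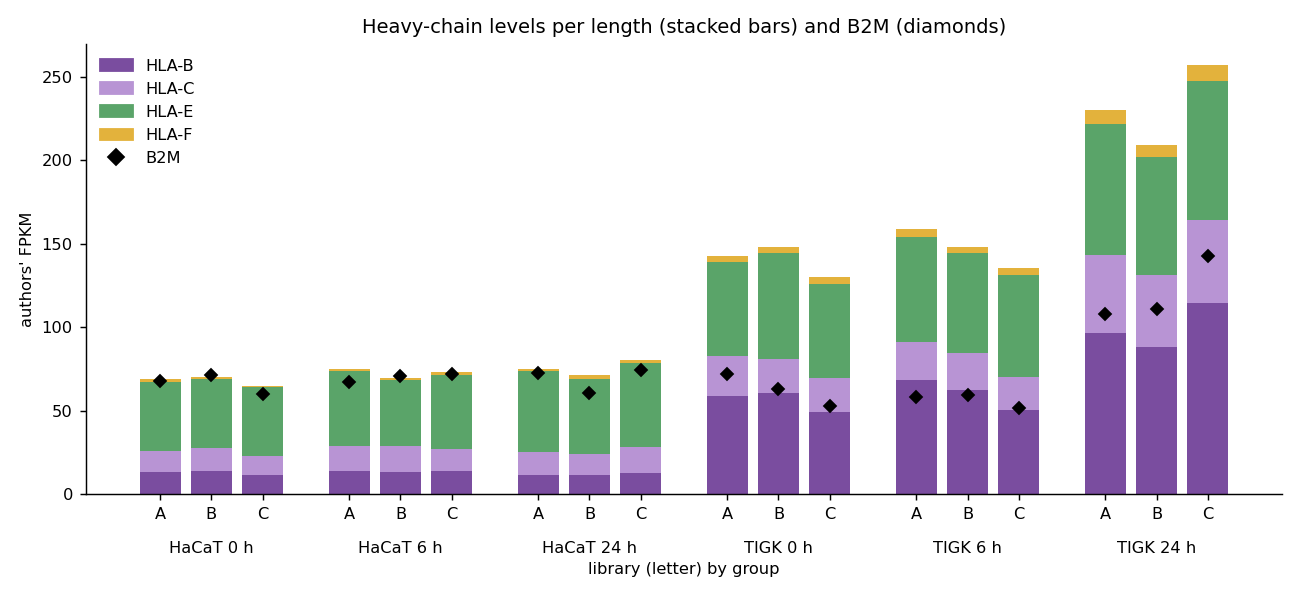
Stacked bars give the authors' FPKM of HLA-B, HLA-C, HLA-E and HLA-F in each library (letters A to C within the 6 groups), and black diamonds give B2M on the same axis. In HaCaT the diamonds lie near the top of bars of 65.0 to 80.5 FPKM, and in TIGK they lie within bars of 130 to 257 FPKM.

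Paired subunits were set against each other as log2 ratios of FPKM, with 0.1 added to each value. The size of a ratio depends on the annotated gene lengths, which are the same in every library. TAP1 over TAP2 was 0.84, 0.86 and 0.91 in HaCaT at 0 h and 1.87, 1.92 and 1.88 at 24 h. In TIGK it was 0.59, 0.69 and 0.69 at 0 h and 1.60, 1.55 and 1.69 at 24 h. TAP1 thus stood further above TAP2 at 24 h in every library of both lines, through a rise of TAP1 and a fall of TAP2 in HaCaT and through TAP1 in TIGK. PSMB8 over PSMB5 was -2.02, -2.16 and -2.41 in TIGK at 0 h and -1.10, -1.31 and -1.45 at 24 h, so that PSMB8 went from 21.8% to 40.9% of PSMB5 (geometric means). In HaCaT it was 12.9% at 0 h and 14.5% at 24 h, with overlapping libraries. PSMB9 over PSMB6 stood at 5.48% in TIGK at 0 h, 3.91% at 6 h and 7.24% at 24 h, and at 3.75% in HaCaT at 0 h and 5.53% at 24 h. PSMB10 over PSMB7 stood at 7.44% and 8.91% in TIGK and at 4.45% and 5.03% in HaCaT at 0 h and 24 h.

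**Figure D4:**
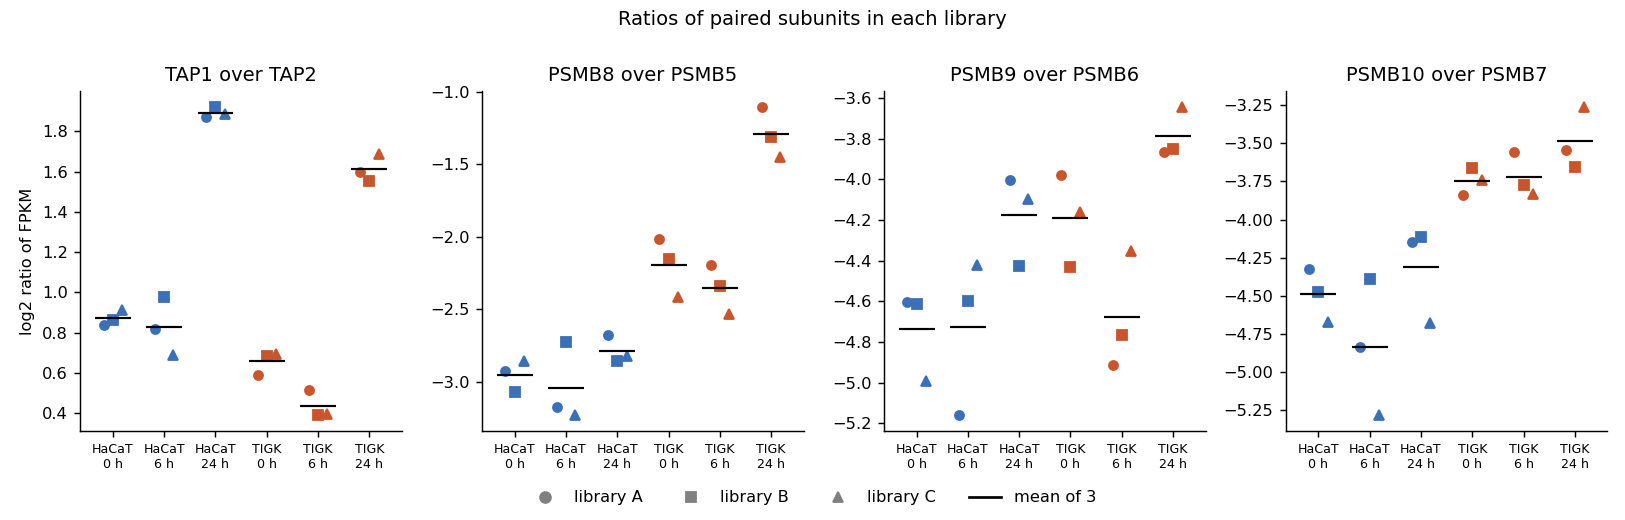
Log2 ratio of FPKM (vertical axes, a separate scale in each panel) of paired subunits in each library of the 6 groups, with black lines for the mean of 3. TAP1 over TAP2 lies at 1.55 to 1.92 in the 24 h libraries of both lines and at 0.39 to 0.98 in the other libraries.

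The rest of the pathway was read from 7 lists of genes, counted in both directions. From 0 h to 24 h, 32.3% of all genes tested were called in TIGK. Of 7 genes of peptide loading, 2 rose there: TAPBP (tapasin, which bridges the transporter to the heavy chain) from 210.1 to 239 CPM up to 317 to 401 CPM (log2 0.61 ± 0.10, adjusted p = 4.42e-05), and ERAP1, a peptide-trimming aminopeptidase (log2 0.37 ± 0.11, adjusted p = 0.00905). The ERAP1 call was lost without TIGK C at 0 h (adjusted p = 0.0602) or TIGK A at 24 h (0.0765). In HaCaT, where 31.4% of all genes tested were called, 2 of 7 rose, TAPBP (log2 0.65 ± 0.10, adjusted p = 2.3e-05) and the chaperone CALR (log2 0.34 ± 0.07, adjusted p = 0.000337). TAPBP thus rose in both lines, and its difference between the responses was not called.

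Over all genes tested, 32.3% were called from 0 h to 24 h in TIGK and 31.4% in HaCaT. Of 5 genes listed as partners, which are not all particular to the immunoproteasome, PSMB10, the inducible counterpart of PSMB7, rose in TIGK (log2 0.56 ± 0.19, adjusted p = 0.0287). PSME3, a subunit of the nuclear proteasome activator PA28-gamma, fell there (log2 -0.61 ± 0.07, adjusted p = 3.13e-07). In HaCaT PSME3 fell too (log2 -0.59 ± 0.07, adjusted p = 5.61e-07), as did the assembly factor POMP (log2 -0.34 ± 0.09, adjusted p = 0.00341). Of the 3 standard catalytic subunits, PSMB7 rose in TIGK (log2 0.27 ± 0.10, adjusted p = 0.0377), and PSMB5 and PSMB6 did not pass. PSMB6 had the largest log2 change of the 3 there, at 0.34, and 2 of the 3 had an unadjusted p under 0.05 by edgeR. In HaCaT none of the 3 passed by edgeR or had an unadjusted p under 0.05. Of the 11 other subunits of the 20S core, PSMB3 (log2 0.36 ± 0.11, adjusted p = 0.0103) and PSMB4 (log2 0.27 ± 0.10, adjusted p = 0.0388) rose in TIGK. None passed in HaCaT by edgeR or had an unadjusted p under 0.05. The medians were 0.24 for the partners and 0.15 for the other core subunits in TIGK, against 0.89 for the 9 genes. The proteasome calls in TIGK rested on few libraries. Without TIGK C at 24 h, PSMB10 (adjusted p = 0.237), PSMB7 (0.207), PSMB3 (0.109) and PSMB4 (0.319) were lost, and without TIGK A at 0 h they were also lost (0.0842, 0.0740, 0.0691 and 0.0695). Without TIGK C at 0 h, PSMB10 (0.0712), PSMB7 (0.0918) and PSMB4 (0.156) were lost, and without TIGK C at both 0 h and 6 h the same 3 were lost (0.0662, 0.0759 and 0.131). PSMB7 was lost without TIGK B at 0 h (0.0748) or 24 h (0.0793), and PSMB4 without TIGK B at 24 h (0.0767) or HaCaT A at 0 h (0.0503). PSME3 kept its call in both lines without any 1 library.

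Among the regulators, NLRC5, the class I coactivator, rose in TIGK from 17.4 to 18.1 CPM up to 31.2 to 45.9 CPM (log2 1.08 ± 0.13, adjusted p = 1e-06), while its HaCaT libraries stayed within 13.7 to 18.5 CPM. IRF2 rose in TIGK (log2 0.83 ± 0.13, adjusted p = 2.22e-05) and the CCAAT-binding subunit NFYA fell (log2 -0.90 ± 0.08, adjusted p = 1.21e-08). In all, 4 of 12 regulators rose and 1 fell in TIGK, where 32.3% of all genes were called. In HaCaT, where 31.4% of all genes were called, 2 of 12 rose, RFX5 (log2 0.71 ± 0.09, adjusted p = 2.26e-06) and IRF1 (log2 0.58 ± 0.13, adjusted p = 0.00117).

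The change from 0 h to 24 h differed between the lines for 4 of the 12 regulators, where 13.5% of all genes were called in either direction. NLRC5 (log2 -1.01 ± 0.19, adjusted p = 0.00078) and IRF2 had lower values in HaCaT, and NFYA and RFX5 had higher ones. IRF2 was lost without HaCaT A, B or C at 0 h, C at 6 h, A or C at 24 h, or TIGK B or C at 0 h or 24 h (adjusted p 0.0546 to 0.117). RFX5 was lost without HaCaT B or C at 0 h or A, B or C at 24 h, or TIGK A or C at 0 h or 24 h (0.0508 to 0.113). Without TIGK C at both 0 h and 6 h, IRF2 stood at 0.0836 and RFX5 at 0.0947. NLRC5 and NFYA kept their calls without any 1 library. At 24 h itself, when 61.7% of all genes differed between the lines, 8 of 12 regulators did, 5 lower and 3 higher in HaCaT. NLRC5 was lower in HaCaT at that time (log2 -1.14 ± 0.14, adjusted p = 8.87e-08) and RFX5 was higher (log2 0.90 ± 0.09, adjusted p = 1.08e-08).

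Among 15 tested genes for other class I chains and class I-like ligands, 6 rose in HaCaT from 0 h to 24 h and none fell, which is 6 of 15 where 31.4% of all genes tested were called. MR1, which presents vitamin B metabolites, rose from 20.3 to 24.2 CPM up to 39.1 to 43.0 CPM in HaCaT and from 18.9 to 20.9 CPM up to 37.3 to 40.5 CPM in TIGK. ULBP1, a ligand of the NKG2D receptor of natural killer cells, rose in HaCaT (log2 2.65 ± 0.36, adjusted p = 2.58e-06), as did HFE (log2 1.10 ± 0.18, adjusted p = 4.73e-05) and MICB (log2 0.62 ± 0.13, adjusted p = 0.000621). ULBP1 was scarce in HaCaT, at 0.384 to 0.619 CPM at 0 h and 2.02 to 4.32 CPM at 24 h. In TIGK at 24 h it stood at 5.94 to 6.22 CPM. In TIGK 3 rose, MR1, RAET1L (log2 1.52 ± 0.21, adjusted p = 5.3e-06) and HFE (log2 0.87 ± 0.18, adjusted p = 0.000632), and ULBP3 fell (log2 -0.79 ± 0.20, adjusted p = 0.00379), which is 4 of 15 where 32.3% of all genes were called. Of the 9 presentation genes, 3 were called in HaCaT in the same comparison.

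MHC class II genes, which present peptides to CD4+ T cells and are usually low in keratinocytes, were mostly scarce here. Of 14 listed, 9 passed the filter, and none was called from 0 h to 24 h in either line by edgeR. Over all genes tested, 31.4% were called in HaCaT and 32.3% in TIGK. In each line 1 of the class II genes had an unadjusted p under 0.05. HLA-DPB1 had 0 counts in all 9 HaCaT libraries, which allows up to 3 counts, or 0.183 to 0.205 CPM, in a library (counting error only). In TIGK it stood at 3.98 to 8.85 CPM. HLA-DQB1 was the most abundant of the list, at 7.06 to 11.8 CPM in HaCaT and 7.25 to 16.3 CPM in TIGK, about the level of HLA-F and PSMB9 in HaCaT. The class II transactivator CIITA was at 1.80 to 3.81 CPM over all libraries.

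**Figure D5:**
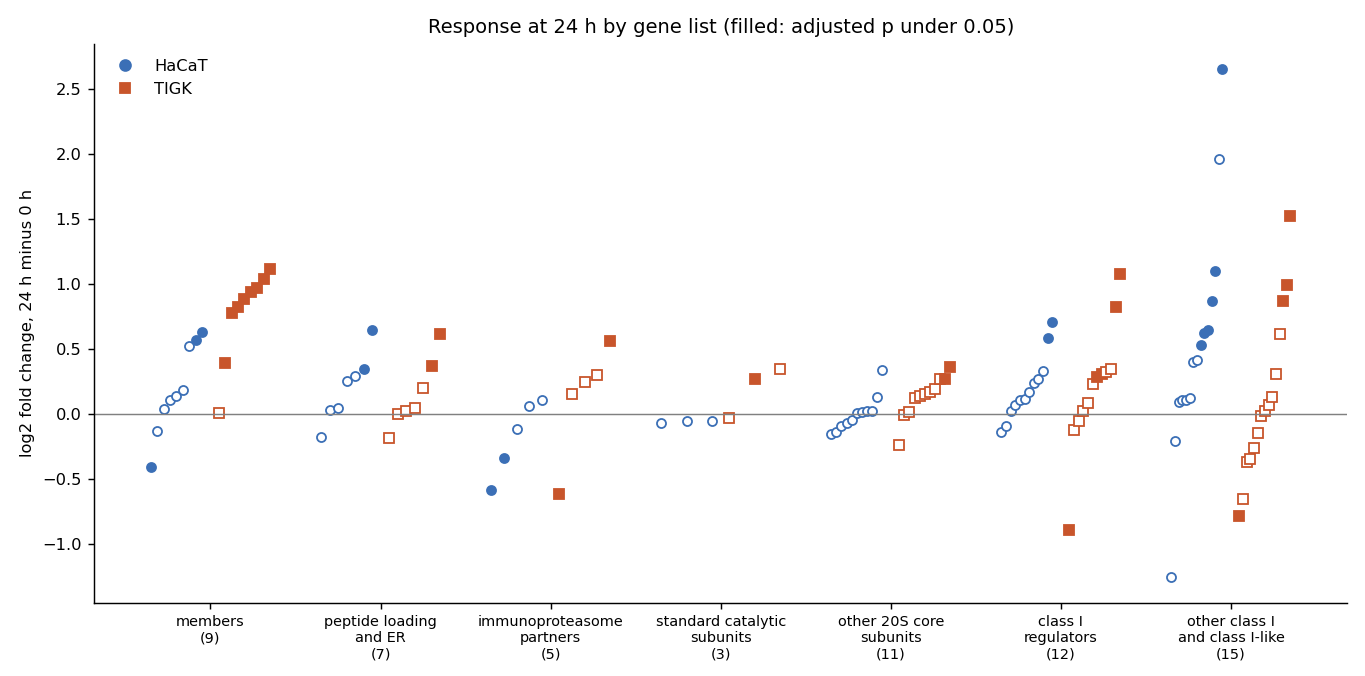
Log2 fold change from 0 h to 24 h (vertical axis) of each tested gene in the 9 presentation genes (labelled members) and 6 lists, with the number of genes in parentheses, HaCaT as blue circles and TIGK as orange squares; filled symbols have an adjusted p under 0.05. In TIGK 8 of the 9 presentation genes lie at 0.39 to 1.12, and the highest regulator is NLRC5 at 1.08.

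Across the 18 libraries, each gene's log2 CPM was correlated with those of 8708 protein-coding genes that reached 20 CPM in a group mean. These values describe a set of libraries that share line and time, and carry no test. The genes most like PSMB8 were IFIT3 (Pearson r = 0.993), IFIH1 (0.985) and IFIT2 (0.984). Those most like HLA-C were UBE2L6 (0.983), OASL (0.981) and PLSCR1 (0.981), and those most like HLA-F were CHMP5 (0.977), APOL1 (0.975) and HERC5 (0.974). HLA-B was most like RAB11B (0.995), IFI6 (0.992) and LAP3 (0.992), and HLA-E most like PARP10, CHMP5 and C1R (0.972 each). B2M had AGTRAP (0.963), SNX6 (0.952) and IFITM1 (0.940), TAP1 had TRIM5 (0.969), MMP14 (0.954) and RETREG1 (0.952), and PSMB9 had SPTSSA (0.905), AMZ2 (0.890) and CDKN2AIPNL (0.876). TAP2 was most like PCID2 (0.962), RAN (0.961) and RPL7L1 (0.954).

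Correlations within a line are given as a description over 9 libraries each, which share the 3 times. In TIGK, TAP1 and PSMB8 had r = 0.989, HLA-C and B2M 0.972 and HLA-B and HLA-E 0.942, while TAP2 lay between -0.241 and -0.037 with each of the other 8. In HaCaT the same pairs had 0.590, 0.771 and -0.294, and TAP1 and TAP2 had r = -0.858.

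The authors' deposited tables of comparisons list only genes past thresholds. For TIGK at 24 h against 0 h, the authors' deposited table lists 8 of the 9 genes, all higher, and leaves out TAP2. For HaCaT at 24 h, the authors' deposited table lists TAP1 (log2 0.63) and TAP2 (log2 -0.40). Between the lines, where the smallest listed change in the authors' deposited table is a log2 of 1.5, HLA-B and HLA-F are listed at 0 h and HLA-B, HLA-C, PSMB8 and HLA-F at 24 h. Neither of the authors' deposited tables for 6 h against 0 h lists any of the 9.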

How the data were processed

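RNA-seq libraries of HaCaT and TIGK cells were aligned and counted by the authors; the submitters' processing notes name HISAT2 2.0.5, StringTie 1.3.3b, featureCounts 1.5.0-p3 and hg38, with no roles. The deposited table holds raw counts and FPKM per gene, the latter scaled by the authors to gene length and library total. The deposited comparison tables hold the authors' log2 fold changes and adjusted p-values. No per-sample column was left unused (0). Columns carry letters and labels carry numbers, and the sources do not tie them, so libraries are named by letter within a group. Counts were tested with edgeR 4.0.16 (R 4.3.3): filterByExpr, TMM, 6 group means over 18 libraries and 12 residual degrees of freedom, 11 comparisons; fold changes use a prior count of 0.125. Alternatives used RLE scaling, no filter, a block by letter, fewer libraries or groups, DESeq2 1.42.0 and limma 3.58.1 on log2(FPKM + 1) and log2(FPKM + 0.1). Scripts were tested on simulated data. The genes and lists were chosen with earlier results of these data known. A gene of the regulator list is not reported here, and the counts of that list leave it out. The text names the 9 genes throughout, and up to 4 genes of each list, those with the lowest adjusted p in the comparison described. Where none passed, as for class II from 0 h to 24 h, the rule was the highest CPM. Likeness used log2 CPM with a prior count of 2. Depth limits HLA-F and PSMB9 most, at 69 counts in their lowest library.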

Additional observations from a re-analysis of the deposited data

Results flagged for a closer look

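The change from 0 h to 24 h differed between HaCaT and TIGK for 6 of the 9 genes by edgeR's test of the difference itself. The HaCaT change minus the TIGK change, on the log2 scale, was -0.95 for HLA-B, -0.98 for HLA-C, -0.90 for B2M, -0.34 for TAP1, -0.42 for TAP2 and -0.78 for PSMB8. HLA-B, HLA-C, B2M and PSMB8 rose in TIGK and did not pass the test in HaCaT. TAP1 rose in both lines, by less in HaCaT, and TAP2 fell in HaCaT and stood at log2 0.0093 in TIGK. The TAP1 and TAP2 differences did not pass in 8 and 5 of the 18 fits that left out 1 library.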

How the results depend on the processing

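No result reversed. The number of the 9 genes called stayed within 1.5 times its value in 285 of 286 alternatives; the exception was HaCaT at 24 h against 0 h, with 5 called (4 higher, 1 lower) when only those groups were fitted, where the 6-group fit called 3. Of 2574 single-gene alternatives, 2524 kept direction and call, 42 lost the call and 8 gained it; of 780 added after seeing the data for the list genes named, 48 lost the call. Leaving out 1 library, 6 to 7 genes were called between the lines at 0 h, 7 at 6 h and 8 to 9 at 24 h. Likewise 2 to 3 were called in HaCaT at 24 h against either time, 7 to 8 in TIGK against 0 h and 8 against 6 h, and 4 to 6 for the difference of the 24 h responses. TAP1 in that difference missed the threshold with RLE scaling (adjusted p = 0.0517), without the filter (0.224) and with only the groups compared (0.0585), and TAP2 without the filter (0.163); TAP1 at 0 h missed it without the filter (0.0684) and with only the groups compared (0.0515). HLA-E in HaCaT at 24 h against 0 h passed with RLE scaling (0.0404), DESeq2 (0.0276) and limma (0.0323 and 0.0328). With limma, PSMB9 between the lines at 24 h (0.0559, pseudocount 0.1) and HLA-F in HaCaT at 24 h against 6 h (0.0625, pseudocount 1) lost the call; HLA-B in the latter comparison gained it with only the groups compared (0.0329). Of 240 alternatives for the FPKM ratios, 23 moved a value by more than 1 SD, 22 of them with a pseudocount of 1 and 1 with 0; with 1, TAP1 over TAP2 was 0.77 and 1.69 in HaCaT and 0.60 and 1.5 in TIGK at 0 h and 24 h. Counts over all genes were least stable at 6 h: 35 in HaCaT (4 to 200 over the alternatives), 630 in TIGK (350 without TIGK B at 6 h, 359 with only the groups compared) and 131 for the difference of responses (68 to 300). The letters were not taken to pair the libraries, since not every same-letter correlation of deviations exceeded 0.1: they were -0.025 to 0.022 in HaCaT and 0 to 0.027 in TIGK between 24 h and the other times. Between TIGK at 0 h and 6 h they were 0.105, 0.094 and 0.388, each library correlating best with its own letter, a hint from the data and not the design. The replicate block by letter called 3 of the 9 genes in HaCaT and 8 in TIGK at 24 h against 0 h, and 70 of all genes in HaCaT at 6 h, where 35 were called without it. Summing rows of a symbol changes nothing, since each gene has 1 row, and was not run.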
